A study of Arabidopsis thaliana with 12 samples.

Results

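The mannitol response of wild-type Arabidopsis thaliana seeds was described from 6 of the 12 RNA-seq libraries of the study, 3 of Col-0 seeds in water and 3 of Col-0 seeds in 300 mM mannitol, chosen by genotype and medium alone. All seeds were after-ripened, were chilled moist for 2 days at 4°C before spending 12 h in the medium at issue, so the water controls had imbibed for as long as the treated seeds. The parent plants were grown at 22°C with 16 h of light. The other 6 libraries, of odr1-2 mutant seeds (ODR1 is known as a negative regulator of seed dormancy) in the same media, entered only the shared estimate of the spread and a test of whether the response differed between the genotypes. Each sample was whole seed, with no separation of embryo, endosperm and seed coat. How many seeds made up a sample is not given in the sources used here, and seeds were sampled at 1 time only. In such bulk samples, fewer cells of a type and less RNA per cell cannot be told apart.

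Mannitol is a sugar alcohol that lowers the water potential of the medium, so that seeds take up less water without meeting a salt. An after-ripened, chilled seed of Col-0 completes germination once the embryo takes up water and its radicle cells elongate through the endosperm and testa. Abscisic acid (ABA) holds this step back: it binds PYR/PYL receptors, which then inhibit clade A protein phosphatases 2C (PP2Cs), and the SnRK2 kinases so released activate basic leucine zipper (bZIP) factors that switch on late embryogenesis abundant (LEA) and other desiccation-tolerance genes. Gibberellin acts in the opposite sense and promotes wall loosening, cell elongation and use of the reserves.

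The bZIP factors bind the ABA-responsive element (ABRE), B3 factors of the embryo bind the RY element, and E2F factors bind an element of S-phase genes. The promoters of 6 genes that moved are shown, because each carries at least 1 match to 1 of these elements: EM6, RD29B and OLEO1 to the ABRE, CRA1 and GASA2 to RY, and ORC2 to E2F. Each stretch is the 250 bases before the annotated gene start in RefSeq's TAIR10.1 assembly, 5′ to 3′ on the strand of the gene. Capitals mark matches to the element named for that gene, and letters of the other elements are not marked. The stretches lie at chr2:16780369-16780618, minus strand (EM6), chr5:21236771-21237020, plus strand (RD29B), chr4:12900180-12900429, plus strand (OLEO1), chr5:17758337-17758586, minus strand (CRA1), chr4:6075646-6075895, minus strand (GASA2) and chr2:15758351-15758600, plus strand (ORC2).
EM6: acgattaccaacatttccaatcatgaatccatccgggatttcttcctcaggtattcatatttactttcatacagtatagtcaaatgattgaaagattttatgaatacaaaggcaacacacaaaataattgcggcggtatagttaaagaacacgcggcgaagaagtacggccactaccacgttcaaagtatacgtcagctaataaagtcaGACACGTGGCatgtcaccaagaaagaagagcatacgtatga
RD29B: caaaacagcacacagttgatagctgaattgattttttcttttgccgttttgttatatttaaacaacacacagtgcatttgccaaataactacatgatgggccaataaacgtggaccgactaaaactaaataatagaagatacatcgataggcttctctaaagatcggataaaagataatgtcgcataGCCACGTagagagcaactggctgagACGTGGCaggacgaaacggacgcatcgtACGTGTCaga
OLEO1: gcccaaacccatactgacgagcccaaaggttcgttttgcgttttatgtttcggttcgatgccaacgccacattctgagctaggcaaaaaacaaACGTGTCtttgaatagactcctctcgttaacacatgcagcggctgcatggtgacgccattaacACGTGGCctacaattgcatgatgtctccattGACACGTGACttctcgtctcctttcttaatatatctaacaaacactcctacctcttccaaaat
CRA1: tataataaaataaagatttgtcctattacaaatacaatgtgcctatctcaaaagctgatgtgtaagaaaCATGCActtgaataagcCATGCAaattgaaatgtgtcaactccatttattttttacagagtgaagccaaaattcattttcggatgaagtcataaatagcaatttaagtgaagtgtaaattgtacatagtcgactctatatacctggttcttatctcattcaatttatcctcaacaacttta
GASA2: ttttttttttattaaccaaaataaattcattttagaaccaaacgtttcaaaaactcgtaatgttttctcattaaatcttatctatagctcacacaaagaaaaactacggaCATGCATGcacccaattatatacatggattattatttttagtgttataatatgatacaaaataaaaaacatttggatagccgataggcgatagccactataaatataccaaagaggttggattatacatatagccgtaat
ORC2: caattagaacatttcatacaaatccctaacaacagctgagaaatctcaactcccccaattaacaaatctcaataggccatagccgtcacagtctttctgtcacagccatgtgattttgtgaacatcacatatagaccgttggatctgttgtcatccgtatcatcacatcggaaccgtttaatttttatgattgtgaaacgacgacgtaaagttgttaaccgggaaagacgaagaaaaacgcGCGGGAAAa

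EM6, which encodes a group 1 LEA protein, held ABRE letters starting 41 and 38 bases before the gene start, and RD29B, a gene of ABA and drought response, held them at 63, 38 and 10 bases. OLEO1, which encodes the main oleosin of the oil body coat, had 4 such matches, and CRA1 and GASA2, for a cruciferin storage protein and a small peptide of the gibberellin-regulated GASA family, had 2 RY matches each. The single E2F match in ORC2, which encodes a subunit of the origin recognition complex, lay 9 bases before the gene start. The 6 genes were chosen from those that changed. Their log2 fold changes (mannitol over water, ± the standard error of the fit) were 1.96 ± 0.06 for EM6, 1.68 ± 0.05 for RD29B, 1.47 ± 0.04 for OLEO1, 1.33 ± 0.03 for CRA1, 3.37 ± 0.11 for GASA2 and -1.36 ± 0.36 for ORC2.

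Over all 18363 tested genes with a promoter in the annotation, 9.73% held the ABRE letters ACGTGNC on either strand in these 250 bases. The share was 25.1% of the 714 promoters of genes that rose at least 2-fold, 12.3% where the rise was smaller, 8.51% of genes not called and 8.35% of genes that fell at least 2-fold. The G-box CACGTG, whose letters can overlap those of the ABRE, went from 6.19% of the genes that fell at least 2-fold to 143 of the 714 that rose at least 2-fold, against 7.46% of all. RY (CATGCA) stood at 16.4% in the strongest rises, against 7.19% of all, and also at 10.8% in the strongest falls. The dehydration-responsive element core CCGAC ranged from 10.2% to 19.3% across the same classes, with 13.4% overall. Among the genes that fell at least 2-fold, 2.3% held the E2F letters TTTCCCGC, against 0.621% of all and 0.280% of the strongest rises. The site II letters TGGGCC and the telo-box AAACCCTA, both found in front of many ribosomal protein genes, were commonest among genes that fell by less than 2-fold, at 21.1% and 5.62%, against 17.4% and 4.04% of all. By gene list, ABRE letters were in 73.3% of 15 LEA promoters and in 0 of 16 promoters of xyloglucan endotransglucosylase/hydrolase (XTH) genes, and RY letters in 84.6% of 13 storage protein promoters. E2F letters were in 7 of 28 promoters of replication genes, among them that of ORC1A, which rose. A match describes the letters in this window and does not show that a factor binds there.

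**Figure D1:**
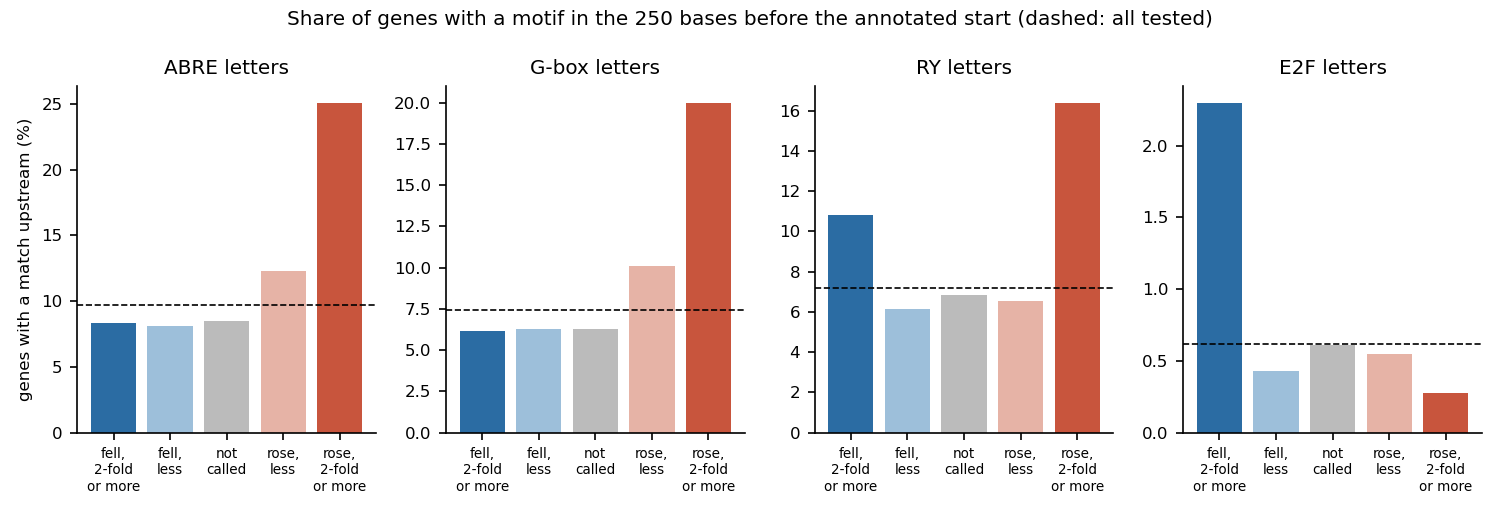
Share of promoters (percent, vertical axis) that hold each of 4 motifs in the 250 bases before the gene start, for genes grouped by their change in mannitol, with all 18363 promoters as reference. ABRE letters reach 25.1% in genes that rose at least 2-fold and 8.35% in genes that fell at least 2-fold, whereas E2F letters are highest, at 2.3%, in the latter, with dashed lines for all tested genes.

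Of 36795 loci, 18413 passed the filter on low counts, and 7798 of these were called (42.4%) by the edgeR quasi-likelihood test at an adjusted p under 0.05, which is the rule behind every "rose" and "fell" here. Of all genes tested, 3865 rose (21.0%) and 3933 fell (21.4%), and these shares are the background for each count of list members below. Most changes were small: 58.1% of the rises and 61.7% of the falls were under 1.5-fold, and the median size of a called change was 0.491 on the log2 scale. At least 2-fold changes were called for 1443 genes (7.84%), 748 up (4.06%) and 695 down (3.77%), and changes over 4-fold for 118 up and 152 down. The median log2 fold change over all genes tested was 0.00308, with quartiles at -0.27 and 0.28. The libraries of the groups did not overlap for 9098 genes (49.4%).

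**Figure D2:**
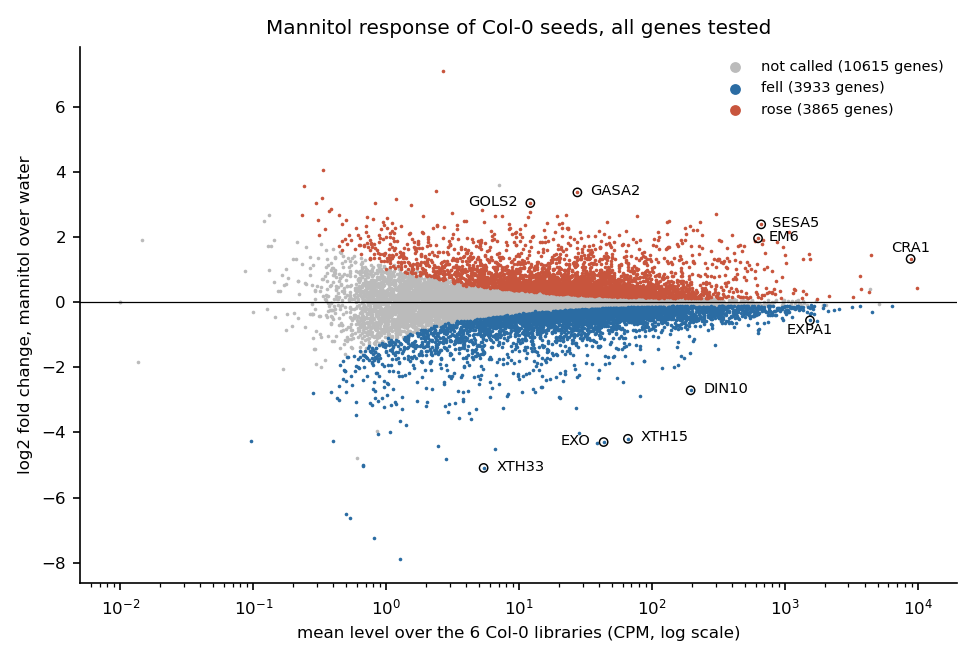
Log2 fold change of each of the 18413 tested genes (mannitol over water, vertical axis) against its mean level over the 6 libraries (CPM, horizontal log axis), with called rises, called falls and genes not called in separate colours. The 3865 rises and 3933 falls lie on both sides of a median of 0.00308, and the deepest falls extend further from 0 than the largest rises among well-counted genes.

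The Col-0 libraries held from 10299894 to 12501256 gene counts, and levels are given as CPM, counts scaled to library size with edgeR's TMM factors, and an error beside a mean is the SD of 3 libraries (n = 3 throughout). The first principal component of the 6 libraries held 66.7% of the variance and separated the media, and the second held 9.96% and set mannitol replicate 1 apart from mannitol replicate 2. Counts of these 2 libraries differed by a chi-square of 5.75 per degree of freedom, where 1 is counting error alone, against 2.01 to 2.03 between water libraries. It was 4.48 between mannitol replicates 2 and 3 and 2.57 between mannitol replicates 1 and 3. In mannitol replicate 2, genes in the shortest quartile of exon lengths were higher than in the other mannitol libraries by a median of 0.106 on the log2 scale and those in the longest quartile lower (-0.112). Mannitol replicate 1 went the other way (-0.0828 and 0.0778), and the part of RNA quality in these shifts was not tested. Without mannitol replicate 2, 119 of 166 list counts (up or down in a list) stayed equal, 39 moved by 1 and the largest move was 9. Summed levels of 9 embryo and storage markers ran from 9840 to 9925 CPM in water and from 23868 to 25150 CPM in mannitol, and all 9 rose. Summed levels of 7 endosperm markers overlapped between the media (water libraries 4555 to 5090 CPM, mannitol libraries 4256 to 7040 CPM). Most of that sum came from AT2G27380, which was not called and varied widely in mannitol (mean 4982 ± 1531 CPM, against 3780 ± 281 CPM for water). Among the rest, MAN7 rose (0.50) and MAN6 fell (-0.27). Sums of 7 seed coat markers overlapped too (23.2 to 26.1 and 22.6 to 24.1 CPM), with BAN and TT2 at 0 counts, but GL2 fell (-0.50). The overlap of the sums therefore does not show that each marker was unchanged. Pollen and root hair markers summed to at most 8.66 CPM in any library, with VGD1, EXPA18 and COBL9 at 0 counts. The strand setting of the counting and the treatment of reads that map to several places are not given in the sources used here, so values of near-identical copies (GSTF2 and GSTF3, the SESA genes, histone and tubulin genes) are uncertain. For the same reason, reads of GBF4, AT1G06760, AFP2, BETA-TIP, ABF1, TIP3;1, GASA6, BZR1, SNRK2.8, PIF1, EEL, ABF4, HTB9, HSP17.4, F3H, SIP2;1, PIF6, MCM7, GSTF2, AMT1;1, XTH15, LAC8, AGP4, SIP1;2, MSL9, L1L and HSFA9 cannot be told apart from those of a gene on the other strand that overlaps them by at least 100 bases at 10% or more of their level.

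ABA receptor genes mostly fell, and phosphatase and bZIP genes mostly rose. Of the 11 tested PYR/PYL receptor genes, 7 fell and 1 rose (2 without mannitol replicate 1), with a median log2 fold change of -0.65, whereas of the 9 clade A PP2C genes, 6 rose and 1 fell, with a median of 0.80. PYL6 stood at 14.4, 16.0 and 17.7 CPM in water and 3.14, 3.84 and 3.47 CPM in mannitol, and PYL4 at 66.1, 68.4 and 72.3 CPM in water and 28.5, 27.9 and 28.1 CPM in mannitol. PYR1, the most abundant receptor transcript of the list by CPM, stood at 185, 175 and 171 CPM in water and 90.08, 107 and 98.2 CPM in mannitol. In each of these 3 genes every mannitol library was below every water library, and the log2 fold changes were -2.20 ± 0.18 (adjusted p = 2.34e-17), -1.29 ± 0.08 (adjusted p = 3.52e-23) and -0.84 ± 0.06 (adjusted p = 5.24e-20). PYL1 (-1.41 ± 0.26), PYL8 (-0.71 ± 0.11), PYL2 (-0.65 ± 0.11) and PYL5 (-0.39 ± 0.08) fell as well, and PYL13 was the receptor gene that rose (1.69 ± 0.20).

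Among the phosphatases, HAI3 went from a mean of 54.2 ± 0.859 CPM (water) to 126 ± 6.55 CPM (mannitol), with a log2 fold change of 1.21 ± 0.06. HAB1 (0.81 ± 0.09), HAI2 (0.80 ± 0.07), AHG1 (0.80 ± 0.05), which acts mainly in seeds, and HAB2 (0.27 ± 0.07) rose. ABI1 was the phosphatase gene that fell (-0.50 ± 0.11). ABI2 (-0.04 ± 0.23) and AHG3 (0.04 ± 0.05) were not called, and HAI1 was called from 1 count in the water libraries, so no fold is given for it. Of 9 SnRK2 kinase genes, SNRK2.10 rose (0.47 ± 0.06), SNRK2.6 (-0.69 ± 0.18) and SNRK2.8 (-0.52 ± 0.09) fell, and SNRK2.2 (-0.02 ± 0.06), which acts with SNRK2.6 in ABA signalling, was not called. Of the 9 group A bZIP genes, 6 rose and 0 fell, led by EEL (1.32 ± 0.10) and ABF4 (1.01 ± 0.10), and followed by ABF1 (0.70 ± 0.18), GBF4 (0.53 ± 0.13) and ABI5 (0.42 ± 0.06). Of 4 tested AFP family genes, AFP3 (1.83 ± 0.36) and AFP2 (0.58 ± 0.08), the latter for a protein that binds ABI5, rose. AFP4 fell (-0.52 ± 0.17) and 1 was not called. Of 5 tested NCED genes, for the dioxygenases that cleave carotenoids towards ABA, NCED9 stood at 7.67, 9.35 and 7.09 CPM in water and 24.4, 25.1 and 24.3 CPM in mannitol, with every mannitol library higher, and NCED4 rose (0.93 ± 0.26) while NCED6 fell (-0.84 ± 0.21). NCED3, whose enzyme makes ABA in drought-stressed leaves, stood at 1.48 ± 0.277 CPM in water against 0.892 ± 0.287 CPM in mannitol and was not called.

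Most genes for storage, oil body and LEA proteins rose in mannitol. Of 15 tested LEA genes, 13 rose and 1 fell (median 1.29), and of 9 dehydrin genes, 5 rose and 1 fell. LEA transcripts together summed to 3651 ± 14.2 CPM in water against 8976 ± 581 CPM in mannitol. EM1, the sister gene of EM6, stood at 153, 158 and 156 CPM in water and 578.1, 669 and 697 CPM in mannitol, and the dehydrin gene RAB18 (AT5G66400) at 373, 401 and 373 CPM in water and 1169, 1462 and 1466 CPM in mannitol. Both groups were well apart in these genes, and the smallest rise in the list, that of LEA4-1, was 0.66 ± 0.04. LEA5 was the member that fell (-0.46 ± 0.06), and of the dehydrins, COR47 fell (-0.58 ± 0.09) and the cold-induced ERD10 was not called (-0.80 ± 0.43). All 13 storage protein genes rose, for cruciferins, albumins and vicilin-like cupins, by 0.59 to 2.39 on the log2 scale. Their summed level was 9712 ± 22.5 CPM in water and 24887 ± 732 CPM in mannitol. The 2S albumin gene SESA5 stood at 205, 212 and 219 CPM in water and 1102, 1164 and 1067 CPM in mannitol, with no overlap between the groups. The other albumin genes rose by less, from 0.59 ± 0.05 (SESA4) to 1.23 ± 0.05 (SESA2), and the vicilin-like PAP85 by 1.79 ± 0.04. Of 12 oil body genes, 10 rose: those of the oleosins OLEO2 (1.77 ± 0.04), OLEO4 (1.73 ± 0.05) and OLEO3 (1.34 ± 0.11), of the caleosin CLO1 (1.77 ± 0.05) and of the oleosin family member AT3G18570 (2.03 ± 0.11) did, while the lipase genes SDP1 (-0.08 ± 0.05) and SDP1-LIKE (0.02 ± 0.07), which release fatty acids from the oil, were not called.

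Many of these transcripts were abundant in both media. On the deposited length-scaled unit, TPM, which allows genes to be set side by side, the highest level in both media was that of LCR67, annotated as a low-molecular-weight cysteine-rich protein, with 9945 ± 119 TPM in water and 16587 ± 1094 TPM in mannitol. CRA1 was among the highest in each medium, with 4332 ± 50.5 TPM in water and 10465 ± 729 TPM in mannitol, and CRU3, for another cruciferin, had 2125 ± 2.33 TPM in water and 5596 ± 326 TPM in mannitol. The uncharacterized gene AT1G68250 had 1705 ± 37.2 TPM in water and 4111 ± 65.6 TPM in mannitol. Enzymes of reserve use ranked beside them: the isocitrate lyase gene ICL had 6113 ± 81.7 TPM in water and 7923 ± 142 TPM in mannitol, the malate synthase gene MLS 3025 ± 34.7 TPM in water and 3584 ± 59.99 TPM in mannitol, and PCK1, for phosphoenolpyruvate carboxykinase, 3229 ± 47.1 TPM in water and 2993 ± 43.0 TPM in mannitol. ICL and MLS rose by 0.43 and 0.30 on the log2 scale, and PCK1 was not called (-0.05 ± 0.03). Of 21 genes of beta-oxidation and the glyoxylate cycle, 9 rose and 2 fell (1 without water replicate 3), and the range was narrow, from -0.24 to 0.57. Of 10 genes for vacuolar and storage proteases, 4 rose and 4 fell: BETA-VPE, the seed enzyme that cleaves storage proteins into their mature chains, rose by 0.69 ± 0.04, and the papain-like AALP (-0.57 ± 0.12) and RD19 (-0.44 ± 0.07) fell.

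DOG1 and related loci rose. DOG1, a main determinant of seed dormancy, stood at 1.14, 1.80 and 0.936 CPM in water and 7.80, 9.77 and 9.90 CPM in mannitol, and every mannitol library was above every water library. Its log2 fold change was 2.82 ± 0.21 (adjusted p = 1.21e-18). On chromosome 4 the neighbouring loci AT4G18650, AT4G18660, AT4G18680 and AT4G18690, of which the last 3 are annotated as delay of germination proteins, rose by 1.35 to 1.94. AT4G18660 stood at 8.14, 6.64 and 7.41 CPM in water and 23.8, 33.1 and 28.3 CPM in mannitol, and AT4G18690 at 12.97, 15.1 and 14.9 CPM in water and 41.8, 51.1 and 41.4 CPM in mannitol. The groups were apart in both. Of the whole list of 22 tested dormancy regulators, 11 rose and 6 fell. RDO5, for a phosphatase-like dormancy protein, rose by 0.53 ± 0.05, whereas ABI4, for an AP2 factor of ABA signalling, fell by 1.26 ± 0.07. Of 14 embryo programme factors, HSFA9 (1.85 ± 0.22), which drives heat shock protein genes during seed maturation, BZIP10 (0.57 ± 0.12) and ABI3 (0.26 ± 0.05) rose and 0 fell, while FUS3 (0.38 ± 0.28), L1L (0.16 ± 0.36) and WRI1 (0.36 ± 0.24) were not called.

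Genes of galactinol, inositol and trehalose-6-phosphate metabolism rose more often than they fell. The 7 tested galactinol and raffinose synthesis genes, of which 4 rose and 2 fell, had a lower summed level in mannitol. It was 918 ± 17.2 CPM in water and 628 ± 17.3 CPM in mannitol. GOLS2, for a galactinol synthase that makes the galactosyl donor of raffinose sugars, stood at 2.65, 2.79 and 2.42 CPM in water and 24.1, 20.2 and 20.7 CPM in mannitol, and STS, for the stachyose synthase that takes part in the same pathway, at 6.53, 7.63 and 5.38 CPM in water and 35.9, 34.0 and 36.0 CPM in mannitol. DIN10, annotated as a raffinose synthase family member and known as a dark-inducible gene, went the other way, with 343, 334 and 337 CPM in water and 48.4, 54.5 and 52.2 CPM in mannitol. None of these 3 genes had overlapping groups. Their log2 fold changes were 3.04 ± 0.15, 2.44 ± 0.11 and -2.71 ± 0.06, and GOLS1 rose as well (1.34 ± 0.08). Both tested inositol-1-phosphate synthase genes rose, MIPS2 by 1.52 ± 0.17 and MIPS1 by 1.07 ± 0.07. Genes for enzymes that oxidize inositol were divided: MIOX2 fell by 2.32 ± 0.08, and MIOX1, the more abundant of the pair by CPM, rose by 0.27 ± 0.06. Of 14 trehalose-6-phosphate genes, 8 rose and 4 fell (2 without mannitol replicate 3), with TPS11 (1.13 ± 0.07), TPS10 (0.84 ± 0.09) and TPS1 (0.45 ± 0.08), the gene for the catalytically active synthase, among the rises and TPPA (-1.37 ± 0.26), for a phosphatase, as the largest fall. SUS3, for a sucrose synthase, stood at 63.2, 62.6 and 57.9 CPM in water and 201, 183 and 191 CPM in mannitol, with every mannitol library higher. Among genes for carriage and cleavage of sucrose at the cell surface, the sucrose carrier gene SUC1 (-2.35 ± 0.17) and the wall invertase gene CWINV1 (-1.49 ± 0.13) fell. Of 14 starch breakdown genes, 7 rose, led by the amylase genes AMY3 (0.76 ± 0.10) and BAM1 (AT3G23920, 0.74 ± 0.06). In proline synthesis, P5CS2, for the synthase that starts the pathway, rose by 0.61 ± 0.05, while P5CR, for the enzyme that completes it, was not called (-0.02 ± 0.04). Of 4 tested genes of polyol transport and oxidation, PLT6 (1.47 ± 0.25) and AT5G51970 (0.82 ± 0.06), annotated as a zinc-binding alcohol dehydrogenase, rose and the polyol carrier gene PMT5 fell (-0.50 ± 0.07).

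Genes for water and ion movement rose and fell within the same families. Of 20 tested aquaporin genes, 5 rose and 8 fell. BETA-TIP, for a water channel of the protein storage vacuole, stood at 66.9, 73.1 and 72.6 CPM in water and 399, 377 and 398 CPM in mannitol, and TIP3;1, of the same kind, rose by 1.88 ± 0.04. PIP3, for a plasma membrane water channel, stood at 286, 281 and 287 CPM in water and 128, 137 and 121 CPM in mannitol, so that its mannitol libraries were all lower (-1.14 ± 0.05). PIP1C (-0.83 ± 0.13), PIP1;4 (-0.37 ± 0.07) and the small intrinsic channel genes SIP1;2 (-1.48 ± 0.16), SIP1A (-0.63 ± 0.09) and SIP2;1 (-0.61 ± 0.15) fell too. The plasma membrane proton pump gene AHA2 stood at 279.6, 279 and 283 CPM in water and 127, 115 and 129 CPM in mannitol, and AHA1, the more abundant of the pair by CPM, at 815, 808 and 806 CPM in water and 1076, 961 and 1058 CPM in mannitol. The first fell (-1.18 ± 0.05) and the second rose (0.35 ± 0.04). AVP1, for the vacuolar pyrophosphatase, fell by 0.58 ± 0.04, and the vacuolar proton ATPase gene VHA-A rose by 0.24 ± 0.05. Among potassium and sodium carriers, NHX3 (1.04 ± 0.07) and the high-affinity potassium carrier gene HAK5 (0.76 ± 0.13) rose and KC1, for a regulatory potassium channel subunit, fell (-0.76 ± 0.07). Of mechanosensitive and osmosensitive channel genes, MSL9 fell (-0.85 ± 0.06), and MSL3 (0.44 ± 0.10) and ERD4 (0.44 ± 0.08) rose.

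**Figure D3:**
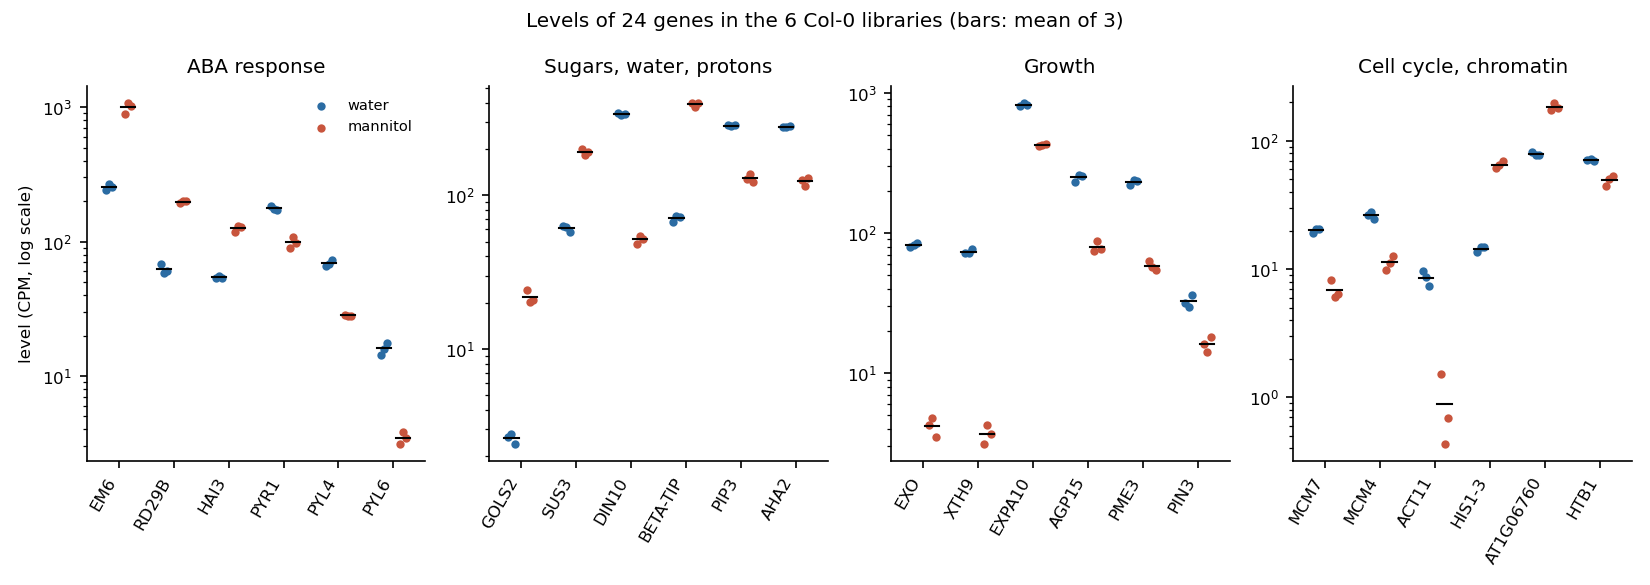
Level of 24 genes in each Col-0 library (CPM, log axis), in 4 panels for ABA response, for sugars, water and protons, for growth, and for cell cycle and chromatin, with points for the 3 water and 3 mannitol libraries and bars at their means. The widest gaps between the groups are those of GOLS2 upwards and of EXO and XTH9 downwards, with GOLS2 at 2.42 to 2.79 CPM in water and 20.2 to 24.1 CPM in mannitol, and the 3 points of a group lie close together.

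In gibberellin synthesis, genes of the last step fell and some genes of earlier steps rose. Of 12 gibberellin metabolism genes, 5 rose and 2 fell. GA3OX1 and GA3OX2, for the enzymes that complete bioactive gibberellin in germinating seeds, fell (-2.10 ± 0.11 and -1.87 ± 0.10), and GA3OX2 stood at 46.9, 53.6 and 48.8 CPM in water and 14.5, 10.6 and 15.7 CPM in mannitol, without overlap. The earlier genes GA3 (0.38 ± 0.05) and GA20OX3 (0.44 ± 0.05) rose. Of the DELLA repressor genes, RGL1 (-1.15 ± 0.23), GAI (-0.36 ± 0.05) and RGA (-0.34 ± 0.05) fell, and RGL2, the main one in seed germination, rose by 0.18 ± 0.04. The gibberellin receptor genes GID1C (0.87 ± 0.14) and GID1A (0.83 ± 0.07) rose, both without overlap. The 4 tested GASA family genes were divided. GASA2 stood at 4.55, 3.94 and 5.92 CPM in water and 48.1, 50.3 and 51.7 CPM in mannitol, GASA3 at 48.3, 51.4 and 48.7 CPM in water and 196, 233 and 202 CPM in mannitol, and AT5G14920, annotated as a gibberellin-regulated family member, at 65.5, 64.8 and 64.2 CPM in water and 15.3, 15.3 and 15.1 CPM in mannitol. GASA2 (3.37 ± 0.11) and GASA3 (2.09 ± 0.06) rose and AT5G14920 fell (-2.09 ± 0.09), each with groups apart, while GASA6 fell slightly (-0.32 ± 0.05).

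Auxin carrier genes fell. Of the PIN efflux carrier genes, PIN2 (-1.25 ± 0.12), PIN3 (-1.01 ± 0.11), PIN7 (-0.96 ± 0.10) and PIN4 (-0.55 ± 0.17) fell, and the influx carrier gene AUX1 fell by 0.62 ± 0.09. PIN3 stood at 31.9, 29.8 and 36.1 CPM in water and 16.1, 14.1 and 18.2 CPM in mannitol, with all mannitol libraries lower. Of the 22 auxin transport and response factor genes tested, 13 fell and 3 rose, and of 21 SAUR genes, which are early auxin response genes tied to elongation, 10 fell and 5 rose. The SAUR loci AT4G34800 (-2.46 ± 0.31), AT4G34790 (-2.26 ± 0.24) and AT1G72430 (-2.26 ± 0.14) fell, and AT3G61900 (1.44 ± 0.11) rose. In the brassinosteroid list, the synthesis genes DWF4 (-1.58 ± 0.11), DWF1 (-0.66 ± 0.06) and BR6OX2 (-0.61 ± 0.10), the receptor gene BRI1 (-0.47 ± 0.06) and the transcription factor gene BZR1 (-0.74 ± 0.15) fell, and BIN2, for a kinase that opposes the pathway, rose (0.27 ± 0.06). In the ethylene list, the receptor genes ETR2 (-1.17 ± 0.14) and ERS1 (-0.62 ± 0.12) fell, and EIN3 (0.42 ± 0.05), for a transcription factor of the response, and ACS2 (1.87 ± 0.20), for a synthase of the ethylene precursor, rose.

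Wall-loosening transcripts were among the deepest falls. EXO, of the EXORDIUM family that promotes cell expansion, stood at 79.6, 81.5 and 85.5 CPM in water and 4.28, 4.80 and 3.47 CPM in mannitol, which gave a log2 fold change of -4.30 ± 0.12 (adjusted p = 1.66e-42). In all, 5 of 6 tested EXORDIUM genes fell, with EXL1 (-2.77 ± 0.31), EXL3 (-1.93 ± 0.05), EXL5 (-1.71 ± 0.05) and EXL4 (-1.60 ± 0.37), and EXL2 rose, with 312 ± 7.53 CPM in water against 532 ± 19.6 CPM in mannitol (0.77 ± 0.04). Of 16 tested XTH genes, for enzymes that cut and rejoin xyloglucan, 12 fell and 3 rose (median -1.77). XTH9 stood at 72.5, 71.8 and 76.6 CPM in water and 3.14, 4.27 and 3.65 CPM in mannitol, and XTH16 at 46.4, 51.2 and 48.9 CPM in water and 4.95, 5.50 and 4.86 CPM in mannitol. XTH19 stood at 168, 156 and 159 CPM in water and 55.5, 61.3 and 62.6 CPM in mannitol (-1.43 ± 0.06). In all 3, each mannitol library was below each water library, whereas XTH25 (0.96 ± 0.08), XTH31 (0.70 ± 0.08) and XTH11 (0.39 ± 0.09) rose.

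Expansins, which loosen walls without cutting them, moved less. Of 13 tested members, 7 fell and 0 rose, with EXPA10 at 809, 847 and 821 CPM in water and 415, 424 and 433 CPM in mannitol (-0.96 ± 0.04) and with EXPA9 (-0.81 ± 0.06), EXP3 (-0.59 ± 0.05) and the most abundant member, EXPA1 (-0.56 ± 0.04), below their water levels. Of 25 genes for arabinogalactan and fasciclin-like proteins of the cell surface, 18 fell and 0 rose, among them AGP15 at 233, 261 and 254 CPM in water and 73.8, 87.4 and 76.3 CPM in mannitol, AGP4 (-2.51 ± 0.20) and AGP17 (-1.70 ± 0.18). PME3, for a pectin methylesterase, stood at 221, 239.8 and 235 CPM in water and 63.4, 56.8 and 54.8 CPM in mannitol, a change of -1.99 ± 0.06. The mannitol libraries of EXPA10, AGP15 and PME3 were all below their water libraries. The laccase gene LAC8 (-2.90 ± 0.08) and LGT9, annotated as a sugar transferase family member (-3.25 ± 0.23), were among the 12 largest falls. Of cellulose synthase genes and partners, CESA1, of the primary wall complex, fell (-0.52 ± 0.06) and CESA9, a seed form, rose (1.097 ± 0.28), with the other 10 not called. MAN7, for an endo-beta-mannanase, rose by 0.50 ± 0.05.

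Most tubulin and replication genes fell. Of 15 tubulin genes, 9 fell and 0 rose, and the larger ones by CPM included TUA6 (-0.61 ± 0.04), TUA5 (-0.57 ± 0.05) and TUA3 (-0.72 ± 0.05), with TUB2 (0.00 ± 0.04) not called. ACT11, an actin gene known from reproductive tissue, stood at 9.66, 8.61 and 7.33 CPM in water and 1.52, 0.436 and 0.695 CPM in mannitol, with groups apart, whereas ACT7 was not called (0.02 ± 0.04) and ACT8 rose (0.31 ± 0.07). All 6 genes of the MCM2 to MCM7 helicase, which unwinds DNA at replication forks, fell, with log2 fold changes from -1.54 to -1.04. MCM7 stood at 19.0, 20.7 and 20.6 CPM in water and 8.28, 6.11 and 6.43 CPM in mannitol, and MCM4 at 26.4, 27.8 and 24.8 CPM in water and 9.80, 11.3 and 12.8 CPM in mannitol. The origin recognition genes ORC2 (-1.36 ± 0.36) and ORC3 (-1.15 ± 0.22), the licensing gene CDT1A (-1.22 ± 0.19), the sliding clamp gene PCNA1 (-1.25 ± 0.17) and MCM10 (-1.54 ± 0.47) fell with them, and ORC1A rose (0.65 ± 0.15). In total, 19 of 28 replication genes fell and 1 rose (median -1.04), and RNR1 (0.04 ± 0.05) and TSO2 (-0.03 ± 0.07), for ribonucleotide reductase subunits, were not called. Of 17 cyclin genes, 8 fell and 0 rose, but 4 fell without mannitol replicate 3 and 1 rose without mannitol replicate 2 or water replicate 3, and the mitotic CYCB1;1 was not called (0.36 ± 0.22). Of 16 genes for cyclin-dependent kinases and their inhibitors, 3 rose and 2 fell, the latter 0 without mannitol replicate 1 and 1 without mannitol replicate 3, water replicate 1 or water replicate 3.

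Histone genes differed among variants. HIS1-3, for the drought-inducible linker histone H1 variant, stood at 13.6, 14.9 and 14.8 CPM in water and 61.7, 64.5 and 69.6 CPM in mannitol, and AT1G06760 and AT2G30620, annotated as winged-helix DNA-binding proteins, at 81.6, 77.7 and 77.9 CPM in water and 174, 197 and 179 CPM in mannitol and at 49.2, 47.9 and 56.4 CPM in water and 86.0, 120.5 and 99.9 CPM in mannitol. All 3 rose without overlap (2.17 ± 0.09, 1.21 ± 0.06 and 0.997 ± 0.08). Of 9 H2B genes, AT1G08170 (2.68 ± 0.12), AT2G28720 (0.93 ± 0.09), HTB2 (0.53 ± 0.07), HTB11 (0.29 ± 0.07) and HTB4 (0.15 ± 0.05) rose, HTB1 fell (-0.52 ± 0.07), and HTB9 (0.16 ± 0.12), AT3G09480 (-0.10 ± 0.17) and AT2G37470 (-0.12 ± 0.12) were not called. The change of HTB4 was 0.0769 without mannitol replicate 2 and no longer called. AT1G08170, annotated as a histone superfamily protein, stood at 5.21, 6.07 and 6.78 CPM in water and 40.9, 34.2 and 41.9 CPM in mannitol, far apart. Of H2A genes, HTA12 (1.68 ± 0.36) and RAT5 (0.91 ± 0.07) rose and HTA11 (-2.10 ± 0.53) and HTA8 (-0.64 ± 0.08) fell. CLF, for a Polycomb histone methyltransferase, fell by 0.69 ± 0.13, and RING1A, of Polycomb complex 1, rose by 0.76 ± 0.08. CMT3, a DNA methyltransferase gene of dividing cells, fell (-1.26 ± 0.29), and the demethylase gene ROS1 rose (0.68 ± 0.15).

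Genes for making proteins fell by small amounts, and genes for recycling them rose. Of 19 ribosome biogenesis genes, 14 fell and 0 rose (median -0.25), with FIB2, for a fibrillarin that modifies ribosomal RNA, at 1142, 1113 and 1159 CPM in water and 767, 804 and 769 CPM in mannitol. Every mannitol library was lower in FIB2 (-0.55 ± 0.04), as in its partner NOP56 (-0.49 ± 0.04). Of 18 translation factor genes, 12 fell and 1 rose, and of 97 genes taken by annotation as ribosomal proteins, a few of them organellar, 58 fell and 1 rose, or 0 to 2 without 1 Col-0 library (median -0.18). Of 21 autophagy genes, 12 rose and 0 fell, led by the ATG8 genes ATG8H (1.502 ± 0.25), ATG8I (0.87 ± 0.08) and ATG8F (0.79 ± 0.08), whose proteins coat the autophagosome, and with the cargo receptor gene NBR1 at 293, 283 and 285 CPM in water and 431, 432 and 421 CPM in mannitol. NBR1 rose by 0.58 ± 0.04 without overlap.

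Chaperone genes moved in both directions. HSP101, for a disaggregase of heat tolerance, rose by 1.58 ± 0.10, HSP70 by 0.86 ± 0.05 and HSP70B by 0.81 ± 0.09, whereas the cognate HSC70-1 stood at 4986, 5078 and 4941 CPM in water and 4100.0, 3904 and 4150.2 CPM in mannitol, and its log2 fold change was -0.30 ± 0.03 with every mannitol library lower. The mitochondrial MTHSC70-1 (-0.61 ± 0.04) and the cytosolic HSP90 genes HSP81-2 (-0.41 ± 0.04) and HSP81-3 (-0.40 ± 0.04) fell as well, and 12 of 20 members of this list with its co-chaperones fell and 6 rose. Of 15 genes of protein folding in the endoplasmic reticulum, 9 fell and 3 rose: BIP2 (-0.62 ± 0.05), BIP1 (-0.58 ± 0.05), CRT1A (-0.53 ± 0.05) and CNX1 (-0.51 ± 0.05) were lower, and BZIP60 (0.30 ± 0.08) and BZIP28 (0.30 ± 0.07), for transcription factors of the unfolded protein response, were higher. Among the 8 small heat shock protein genes tested, HSP17.4 (0.97 ± 0.06), ATHSP22.0 (0.84 ± 0.15) and HSP17.6A (0.72 ± 0.09) rose and 0 fell.

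Stress transcription factor genes moved in both directions. The NAC genes NAC032 (1.75 ± 0.08) and ATAF1 (1.04 ± 0.05) rose and NAC019 fell (-1.14 ± 0.14), and ATAF1 stood at 108, 109 and 109 CPM in water and 214, 237 and 222 CPM in mannitol, without overlap. AT5G18450 (1.80 ± 0.09) and AT1G75490 (1.59 ± 0.09), annotated as integrase-type DNA-binding proteins, rose, as did DREB2A (0.46 ± 0.06), a drought and heat factor. RAP2.3, of the group VII factors that sense oxygen, rose by 0.86 ± 0.04, its relative RAP2.12 by 0.28 ± 0.05, and RAP2.2 fell slightly (-0.18 ± 0.04). Of 30 WRKY genes, 5 rose and 6 fell, near or below the background shares. Of 19 stress marker genes, 9 rose, 6 of them at least 2-fold, and 3 fell. RD29A (1.41 ± 0.22), ERD7 (1.51 ± 0.09) and XERO2 (1.84 ± 0.13) were among the rises, whereas ATHB7 (0.24 ± 0.38), RD22 (-0.33 ± 0.25) and ZAT12 (0.03 ± 0.45) were not called, and the ABA 8'-hydroxylase gene CYP707A3 fell (-1.90 ± 0.32).

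Of 29 antioxidant enzyme genes, 8 rose and 4 fell, with PER1, a seed peroxiredoxin gene, at 207, 199 and 212 CPM in water and 653, 734 and 669.9 CPM in mannitol. The catalase gene CAT3 (AT1G20620) stood at 228, 222 and 225 CPM in water and 571, 500.3 and 546 CPM in mannitol. The groups were apart in both (1.74 ± 0.04 and 1.26 ± 0.05), and most superoxide dismutase and ascorbate peroxidase genes were not called. Of 7 phi class glutathione transferase genes, 4 rose, with GSTF3 at 1.63 ± 0.06 and GSTF2 at 0.71 ± 0.04.

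Among clock genes, several of the REVEILLE group rose, and CCA1 and LHY fell. ASG4 (1.62 ± 0.12), RVE4 (0.97 ± 0.10) and RVE8 (0.96 ± 0.09) rose, CCA1 (-0.73 ± 0.12) and LHY (-0.71 ± 0.09) fell, and the evening gene BOA (0.96 ± 0.07) rose. CCA1 stood at 16.9, 14.2 and 14.4 CPM in water and 10.7, 7.502 and 9.12 CPM in mannitol, and LHY at 30.8, 34.2 and 32.0 CPM in water and 19.8, 21.4 and 18.1 CPM in mannitol. Mannitol libraries were lower in both, and in all 19 of 31 clock genes rose and 4 fell, at the single sampling time. SOM, for a zinc finger protein that represses light-dependent germination, stood at 328, 325 and 309 CPM in water and 674, 681 and 657 CPM in mannitol, and PIF1, for the phytochrome-interacting factor upstream of it, at 309.8, 300.3 and 309 CPM in water and 523, 453 and 526 CPM in mannitol. The groups did not overlap in either (1.06 ± 0.04 and 0.71 ± 0.05), PIF6 rose by 1.18 ± 0.13, and of 23 light receptor and PIF genes, 11 rose and 1 fell. Of 28 genes of light harvesting and carbon fixation, 6 rose and 4 fell.

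Most of the chloroplast-encoded loci that could be tested rose, from a low level. All chloroplast loci together took 0.0104% to 0.0113% of the counts in the water libraries and 0.021% to 0.0239% in the mannitol libraries, without overlap, and 42 of 133 passed the filter on low counts. Of these 42, 36 rose and 0 fell (median 1.52), and their summed level was 97.0 ± 4.63 CPM in water against 207 ± 10.2 CPM in mannitol. ATCG01110 stood at 0.568, 0.820 and 0.936 CPM in water and 4.00, 5.76 and 2.34 CPM in mannitol, with every mannitol library higher. The libraries were selected for poly(A) tails, which most chloroplast transcripts lack, and the part of RNA quality or of that selection in this rise was not tested. Of 8 tested mitochondrion-encoded loci, 3 rose and 0 fell.

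In nitrogen metabolism, ASN1, the asparagine synthetase gene that is induced by dark and low sugar, stood at 13.4, 13.5 and 15.1 CPM in water and 75.6, 73.8 and 82.2 CPM in mannitol, with groups apart (2.46 ± 0.08). GDH1, for glutamate dehydrogenase, rose by 0.64 ± 0.05, while the nitrate reductase gene NIA2 (-0.76 ± 0.06), the ammonium carrier gene AMT1;1 (-0.97 ± 0.15) and ASN3 (-0.56 ± 0.07) fell. Of 13 indolic glucosinolate genes, 8 fell and 0 rose (median -0.72), with CYP83B1, for a cytochrome P450 early in the pathway, at 76.4, 67.6 and 70.2 CPM in water and 22.4, 23.8 and 20.2 CPM in mannitol. CYP83B1 (-1.69 ± 0.09), CYP81F2 (-2.20 ± 0.13), which modifies the indole ring, and MYB34 (-0.89 ± 0.09), a transcription factor gene of the pathway, fell. Of the flavonoid genes, F3H (1.29 ± 0.21) and TT7 (1.17 ± 0.23) rose and the other 5 tested were not called.

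**Figure D4:**
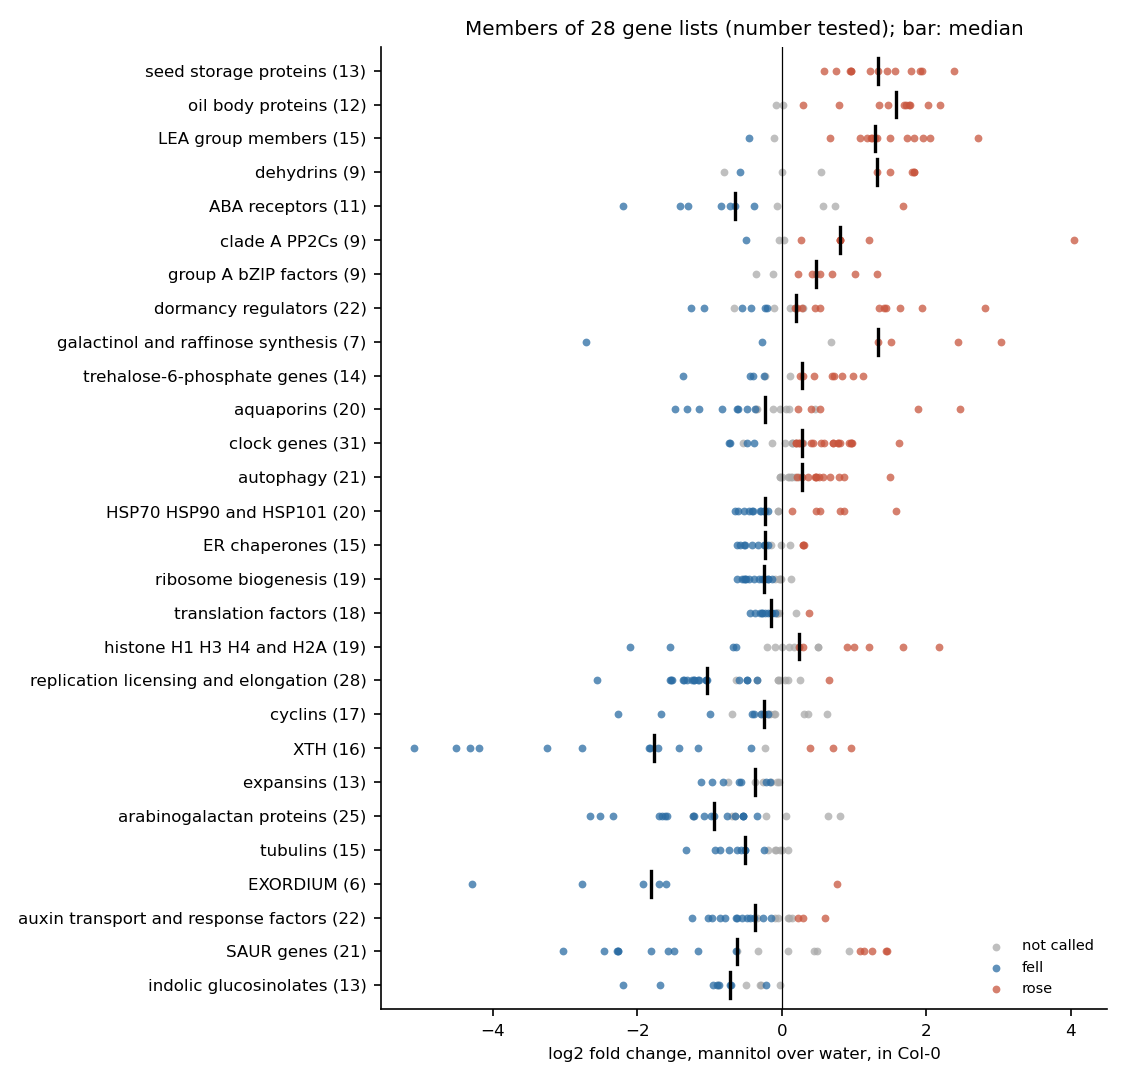
Log2 fold change (mannitol over water, horizontal axis) of every tested member of 28 of the 83 gene lists, 1 row per list, with dots coloured by whether the gene rose, fell or was not called and a bar at the median of the list. The storage protein list lies to the right of 0 and the oil body and LEA lists mostly so, XTH, EXORDIUM, arabinogalactan and replication lists mostly to the left, and ribosome biogenesis close to 0 on the left. The rightmost dot of the clade A PP2C list is HAI1, fitted from 1 count in water.

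Of 14 genes in use as references for quantitative PCR, 2 rose and 3 fell, so that 35.7% were called, against 42.4% of all genes tested. The 9 not called included PP2AA3 (-0.05 ± 0.07), UBC9 (0.02 ± 0.10) and AT4G12590 (0.04 ± 0.07). UBQ5 (-0.29 ± 0.04) and the elongation factor gene AT5G60390 (-0.11 ± 0.03) fell.

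Several loci of little known function were among the 12 largest changes in a direction, which were taken only from genes whose groups did not overlap. The separation of libraries thus follows from the choice, here and for those of these genes given above, such as GOLS2 and XTH9. AT1G05510, annotated with a DUF1264 domain, stood at 35.7, 40.8 and 46.3 CPM in water and 221, 236 and 229.9 CPM in mannitol, and AT1G30860, annotated as a RING/U-box protein, at 5.78, 5.17 and 5.07 CPM in water and 34.3, 32.0 and 32.8 CPM in mannitol. CYP78A6, of a cytochrome P450 family that promotes organ and seed growth, stood at 2.75, 1.64 and 1.72 CPM in water and 13.3, 13.9 and 11.03 CPM in mannitol, and AT2G19320, annotated as uncharacterized, at 3.12, 3.44 and 3.20 CPM in water and 15.9, 23.3 and 20.8 CPM in mannitol. In these genes each mannitol library was above each water library, by 2.48 ± 0.06, 2.63 ± 0.11, 2.66 ± 0.21 and 2.62 ± 0.16 on the log2 scale. Among the falls, AT3G19680 and AT1G10020, both annotated with a DUF1005 domain, stood at 36.1, 37.4 and 34.6 CPM in water and 3.14, 4.27 and 6.51 CPM in mannitol and at 32.9, 36.1 and 37.0 CPM in water and 4.66, 5.23 and 4.08 CPM in mannitol, and their mannitol libraries were all lower (-2.94 ± 0.14 and -2.92 ± 0.14).

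A few loci were counted in only 1 medium. Loci at 0 counts in all 3 libraries of mannitol but with at least 10 counts in water numbered 23, and the reverse held for 7. AT5G14990, annotated as a WPP domain associated protein, had 34, 20 and 36 counts in the water libraries and 0 in mannitol, which puts it at least 29.0-fold lower when the mannitol group is set to a floor of 3 counts in all. AT3G13760, annotated as a C1 domain family member, had 16, 22 and 20 counts in water and 0 in mannitol, at least 18.7-fold lower. In the other direction, the largest count was that of the hydroxysteroid dehydrogenase locus AT5G50700, with 0, 34 and 1 counts in mannitol, so 1 library made up nearly all of it and it was not tested.

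The response was set against that of odr1-2 seeds by the interaction of genotype and medium, and 690 genes differed (3.75%), with a log2 fold change more positive in Col-0 for 491 (2.67%) and more negative for 199 (1.08%). In the LEA list, 10 of 15 genes had the more positive change in Col-0 and 0 the more negative one, in the storage protein list 9 and 1 of 13, and in the oil body list 7 and 0 of 12. ECP31, for a seed maturation protein, rose by 2.71 ± 0.05 in Col-0 and by 1.91 ± 0.04 in odr1-2, a difference of 0.80 ± 0.06. AT1G54860, annotated as a membrane-anchored glycoprotein, rose by 2.65 ± 0.07 and 1.36 ± 0.06 in the same order. The odr1-2 libraries in water stood higher than those of Col-0 in both genes. ECP31 averaged 270.0 ± 10.03 CPM in odr1-2 water, whereas Col-0 had 80.2 ± 3.72 CPM in water against 527 ± 25.4 CPM in mannitol. With its rise of 1.91 from that higher start, ECP31 in odr1-2 also ended above the Col-0 level in mannitol. A smaller change in odr1-2 thus does not mean a lower level. EXO fell less in Col-0 (-4.30 ± 0.12 against -5.63 ± 0.14), and XTH9 fell more (-4.31 ± 0.12 against -3.41 ± 0.11). XTH33 had 374 counts in Col-0 water and 10 in Col-0 mannitol, against 81 and 0 in odr1-2, and no difference is given for it. In the indolic glucosinolate list, 5 of 13 genes changed more negatively in Col-0 and 1 more positively, and in the clock list 4 and 1 of 31.

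**Figure D5:**
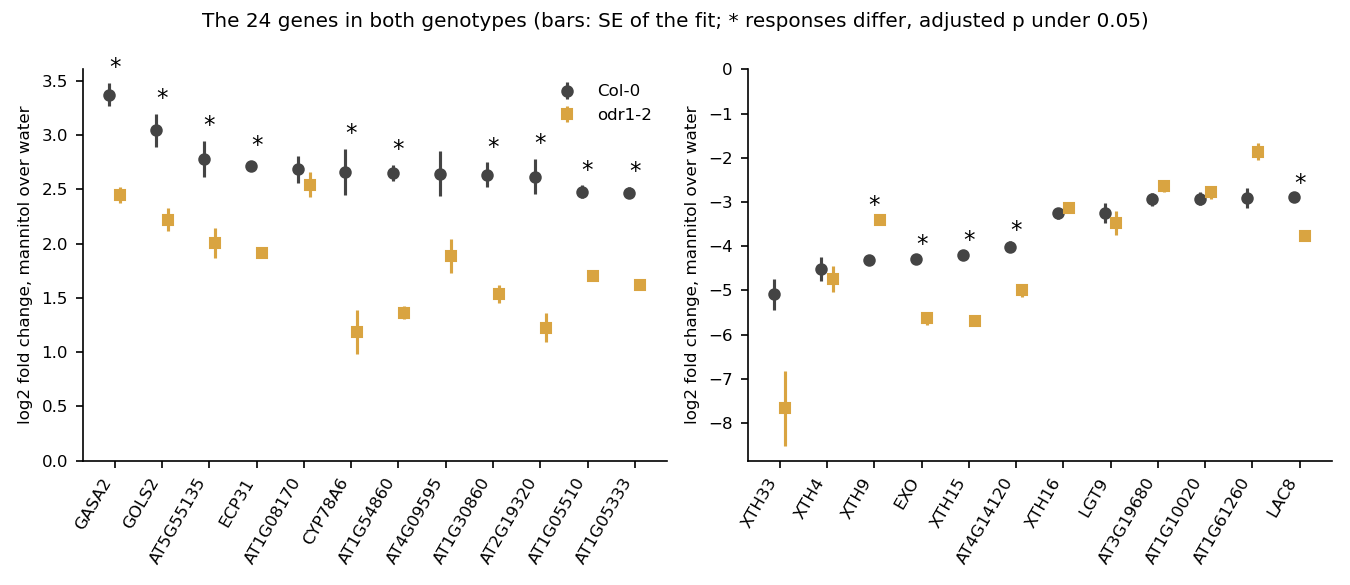
Log2 fold change (mannitol over water) of the 12 rising and 12 falling genes with the largest changes in Col-0, drawn for Col-0 and for odr1-2 with bars of 1 standard error and a star where the responses differed. The change differed in 15 of the 24, with the Col-0 value the more positive in 14 and XTH9 the exception. XTH33 had 0 counts in odr1-2 in mannitol, so its odr1-2 point is a fitted value and no bound.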

How the data were processed

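Libraries were made from messenger RNA of whole seeds, selected by its poly(A) tail and primed at random after fragmentation, per the labels' protocols. The authors used HTSeq 2.0.5, HISAT2 2.2.1 and fastp 0.23.1, with the TAIR10 genome, per the submitters' processing notes. They deposited raw read counts per gene, used for all tests, and TPM, used here to set genes side by side and for an alternative fit. The log2 values given were computed from the deposited counts. The strand setting, trimming settings and treatment of multiply mapped reads are not given in the sources used here. Columns were matched to samples by name, and 0 per-sample columns were left unused.

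The count test was edgeR 4.0.16 (R 4.3.3) with TMM scaling, a filter on low counts by group (minimum count 10, minimum total 15), a robust quasi-likelihood fit of 4 group means to 12 libraries, and two-sided tests with Benjamini-Hochberg adjustment over 18413 genes. Each standard error is the size of the log2 fold change over the square root of F. The common biological coefficient of variation was 5.80%, replicates are biological per the series' design text, and 3 libraries a group limit the precision. Floors cover counting error only. Same-numbered samples did not deviate together (correlations between -0.03 and 0.03), so numbers were not used as pairs. On simulated counts for these libraries the pipeline was run with a small set of genes changed by known folds, all at a mean of at least 10 CPM. That run does not bear on scarcer genes, or on scaling where as many genes change as here.

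Names, overlaps and promoters came from RefSeq's TAIR10.1, in which 36632 of 36795 loci matched a locus tag; the deposited files hold no coordinates. The 83 gene lists and the members were chosen with earlier results of these data known. Named genes were the 12 largest rises and falls without overlap at a mean of at least 10 CPM, the 8 highest by TPM in each group, 3 loci per direction at 0 in 1 group, up to 4 called members of each list at 1 CPM or more, all GASA, EXORDIUM, H2B and PCR reference genes, and 7 anchors. Of the genes this rule gives, 1 is not reported here. Outside that rule, and so chosen after their values were seen, were ABI1, ABI2, AGP15, AHA1, AHG3, ASN3, AT1G06760, AT1G72430, AT2G30620, AT3G61900, ATHB7, AUX1, BIN2, BRI1, BZIP28, BZIP60, CCA1, CDT1A, COR47, CYCB1;1, DREB2A, EIN3, ERD10, ERS1, EXPA1, FUS3, GA20OX3, GA3, GDH1, GOLS1, HAB2, HSP81-2, HSP81-3, HTA8, L1L, LEA4-1, LEA5, LHY, MCM4, MTHSC70-1, NBR1, NCED3, NIA2, NOP56, OLEO3, OLEO4, ORC1A, ORC3, P5CR, PCNA1, PIN4, PIP1;4, PIP1C, PIP3, PYL2, PYL5, PYL8, PYR1, RAP2.12, RAP2.2, RAT5, RD19, RD22, RD29A, RDO5, RGA, RGL2, RNR1, SDP1, SDP1-LIKE, SESA2, SESA4, SIP1A, SIP2;1, SNRK2.2, TPS1, TSO2, TUA5, TUA6, TUB2, VHA-A, WRI1, XTH11, XTH19, XTH25, XTH31 and ZAT12. Alternatives, given in the closing section, were other scalings, filters and tools, 3 other fits of groups or spread, stricter thresholds, a replicate block and leaving out each library.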

Additional observations from a re-analysis of the deposited data

Results flagged for a closer look

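Of the 24 genes with the largest rises and falls in Col-0, 15 had a log2 fold change that differed between Col-0 and odr1-2 seeds by edgeR's interaction test at an adjusted p under 0.05 over 18413 genes. Each difference below is the change in Col-0 minus the change in odr1-2, on the log2 scale, with its standard error. Among the rises, the change was larger in Col-0 by 0.93 ± 0.14 for GASA2, 0.82 ± 0.20 for GOLS2, 0.80 ± 0.06 for the seed maturation gene ECP31 and 1.47 ± 0.30 for CYP78A6. It was also larger for AT1G54860 (1.29 ± 0.10), AT1G30860 (1.098 ± 0.15), AT2G19320 (1.39 ± 0.22), AT5G55135 (0.77 ± 0.23), AT1G05510 (0.77 ± 0.08) and AT1G05333 (0.85 ± 0.07), a locus whose reads cannot be told apart from those of BETA-TIP on the other strand. Among the falls, EXO (1.34 ± 0.26), XTH15 (1.49 ± 0.20), AT4G14120 (0.99 ± 0.25), which overlaps XTH15 on the other strand, and the laccase gene LAC8 (0.87 ± 0.14) fell less in Col-0, and XTH9 fell more (-0.90 ± 0.19). The genes were chosen by their change in Col-0, so a smaller change in odr1-2 is favoured by the choice. Groups of 3 libraries are too small for a test of single libraries that stand apart.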

How the results depend on the processing

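Across 24 alternatives, the number of genes called, 7798 in all, stayed between 5965 (adjusted p under 0.01) and 7898 (replicate block), and every count of rises, falls and calls lay within 1.5 times its main value. No gene was called in the opposite direction under any of the 24. The number of genes whose response differed between the genotypes was 690 and dropped to 450 at an adjusted p under 0.01. Leaving out 1 library at a time gave 6888 to 7872 genes called, 3385 to 3912 up, 3439 to 4004 down, and 558 to 918 that differed between the genotypes, the highest without mannitol replicate 2. With the replicate number as a block, 7898 genes were called, 3908 up and 3990 down, and 757 differed between the genotypes, but same-numbered samples share only a number. The split of calls leaned to falls under total count scaling (3412 up, 4434 down) and in limma-trend on log2(TPM + 1) (3054 up, 4388 down), which shifted the median of all genes to -0.0342 and -0.0487. The DESeq2 Wald test called 7272 genes and limma-voom 7754. Of 433 genes checked singly, 400 kept their call under every alternative and 0 reversed. Most of the others are not named here. PCK1, not called, passed as a fall under total count scaling (-0.09), limma-voom (-0.05) and limma-trend (-0.11), and the rise of HTB4 was lost in limma-trend (0.09) and without mannitol replicate 2. Calls were fewer among scarce transcripts: of genes with a fitted change of at least 2-fold, 56.8% of 287 with a mean below 1 CPM were called, against 97.4% of 729 between 1 and 10 CPM.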
